A study of Arabidopsis thaliana with 8 samples.

Results

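ER bodies are spindle-shaped compartments of the endoplasmic reticulum that Brassicaceae plants fill with beta-glucosidases. In Arabidopsis seedlings they are abundant in roots and in the epidermis of cotyledons and hypocotyls, and wounding induces them in leaves. When a cell is damaged, the root enzyme PYK10 meets jacalin-related lectins in the cytosol and forms large complexes, which are known to hydrolyse glucosides such as indole glucosinolates. The 9 genes described here are members of this system. They comprise the glucosidases PYK10 (AT3G09260), BGLU21 (AT1G66270), BGLU22 (AT1G66280) and BGLU18 (AT1G52400), and the lectins PBP1 (AT3G16420), JAL22 (AT2G39310) and JAL33 (AT3G16450). The last ones are NAI1 (AT2G22770), the transcription factor needed for ER bodies, and NAI2 (AT3G15950), a resident protein needed to form them. They were picked by their locus names. Each had 1 probe among 37478 non-control probes, and all 9 were among the 24599 features tested, which are genes, or single probes where a probe has no locus name. All 9 were well above background on all 8 arrays, so the filter on dim probes removed none, and none had an outlier flag.

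Levels were measured on 1-colour Agilent arrays in total RNA of whole seedlings aged 14 days, from 4 samples of the voz1 voz2 double mutant and 4 of wild type Col-0. VOZ1 and VOZ2 encode plant-specific transcription factors known to bind phytochrome B and promote flowering. All plants grew untreated on half-strength MS agar at 22 °C in days of 16 h light and 8 h dark, and the mutant is labelled with the cultivar Col-0 too. The labels name no alleles and do not say whether the replicates were grown separately, so p-values reflect only how much these samples varied, possibly for technical reasons. In whole seedlings, fewer cells of a type and less RNA per cell cannot be told apart.

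All levels below are log2 processed signals relative to the 75th percentile of their own array. Differences are voz1 voz2 minus wild type on the same log2 scale, tested with limma over all 24599 features, and a gene passed at a Benjamini-Hochberg adjusted p under 0.05. The probe for VOZ2 fell by 5.74 (SE 0.27, limma adjusted p = 1.0e-04) and the probe for VOZ1 fell by 1.5 (SE 0.13, adjusted p = 0.0015), which matches the labels. In the deposited table the VOZ1 call was lost (-1.84, adjusted p = 0.14). Where these probes lie relative to the disrupted parts of the genes is not known. The share of probes well above background ran from 60.4% to 70.3% over the arrays. Each of the 2 slides held 2 arrays of each genotype, with replicates 1 and 3 on slide 1 and replicates 2 and 4 on slide 2. On both slides the mutant samples lay in positions 2 and 4 and the wild type samples in positions 1 and 3, so position and genotype cannot be told apart.

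None of the 9 genes passed the threshold, and 4.44% of all features did, 2.72% as higher and 1.72% as lower in the mutant. In limma, 2 of the 9, PBP1 and JAL22, had an unadjusted p under 0.05, against 23.6% of all features. The genotypes overlapped in every member, and 16.3% of all features had every mutant value above, or every one below, the wild type values. With only 9 genes, counts of 0 do not set the members apart from these shares. The median difference was 0.27 over the members and -0.030 over all features, with 5 members above 0 and 4 below. With slide or with the replicate number as a block the count of members stayed at 0, while 16.1% and 13.5% of all features passed.

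**Figure D1:**
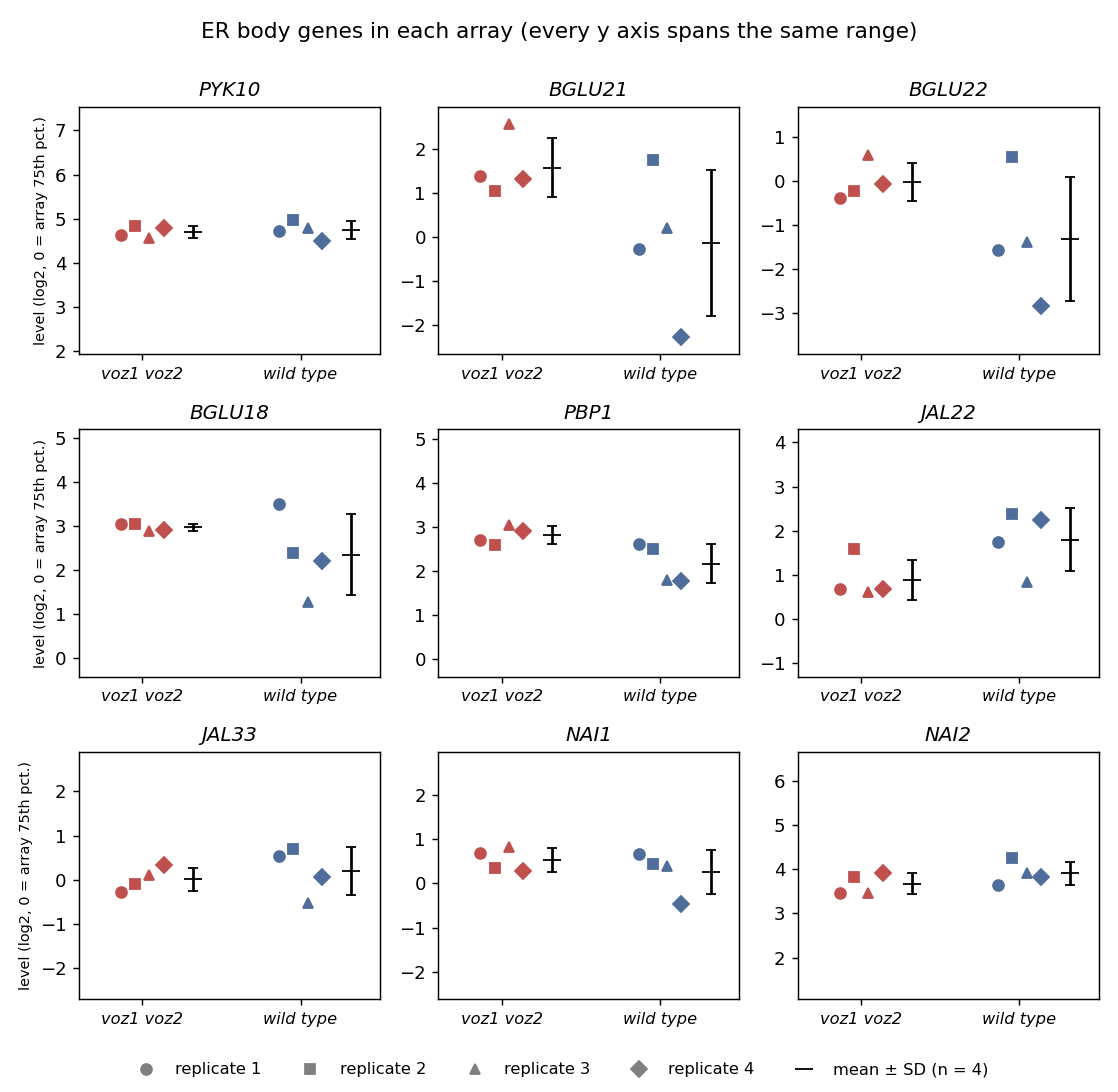
Level of each of the 9 genes in the 4 voz1 voz2 and 4 wild type arrays (y axis, log2 relative to the array's 75th percentile, the same span in every panel), with the mean and SD (n = 4) beside the points. PYK10 lies within 0.49 in wild type, whereas the wild type values of BGLU21 spread over 4.00.

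PYK10, the major root ER body glucosidase, had the smallest pooled SD within genotypes of the 9 genes, although in the mutant alone BGLU18 varied less. It had levels of 4.62, 4.83, 4.56 and 4.78 in voz1 voz2 replicates 1 to 4, against 4.73, 4.98, 4.78 and 4.49 in wild type replicates 1 to 4. All 4 mutant values fell inside the wild type range. Its difference was -0.048 (SE 0.15, 95% interval -0.39 to 0.29, adjusted p = 0.88), with means of 4.70 ± 0.13 in the mutant and 4.74 ± 0.20 in wild type (SD, n = 4 each). The interval leaves room for a change smaller than those bounds in either direction. The sign of so small a value was not stable, being negative on slide 1 (-0.16) and positive on slide 2 (0.067). The spread of PYK10 within genotypes was smaller than that of most features, since only 14% of all features had a smaller pooled SD. That share counts dim features too. Among bright probes, NSP4 had SDs of 0.088 in the mutant and 0.14 in wild type, and JAL34 had 0.31 and 0.44. The low spread is thus not shown to be particular to PYK10.

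BGLU21 and BGLU22 are adjacent genes for closely related glucosidases, known to hydrolyse the coumarin glucoside scopolin in roots. BGLU21 had levels of 1.39, 1.04, 2.56 and 1.31 in the mutant, against -0.27, 1.75, 0.21 and -2.25 in wild type. The mutant samples were all at 1.04 or more, whereas the wild type samples ranged from the lowest value of the 8 in replicate 4 to the second highest in replicate 2. The difference was 1.71 (SE 0.76, 95% interval -0.034 to 3.46, adjusted p = 0.22), with 2.0 on slide 1 and 1.43 on slide 2. BGLU22 had levels of -0.38, -0.23, 0.60 and -0.06 in the mutant, against -1.57, 0.54, -1.39 and -2.84 in wild type. Here too wild type replicate 2 was high and replicate 4 low, and the groups overlapped. Its difference was 1.30 (SE 0.63, 95% interval -0.14 to 2.73, adjusted p = 0.26).

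The size of both differences rested on single wild type arrays. Without wild type replicate 2, BGLU22 had 1.91 and passed (adjusted p = 0.041), while BGLU21 had 2.34 (adjusted p = 0.071). Without wild type replicate 4 the 2 values were 0.79 and 1.01, with adjusted p of 0.49 and 0.40. The pair moved together from array to array, with a correlation of 0.98 over the 8 arrays, given as a description of arrays that share their scaling. Probe sequences were not used here, so it is not known how far each probe also binds the other transcript. The gap between the probes was not constant, at 1.26 to 1.96 over the mutant arrays and 0.58 to 1.60 over the wild type arrays.

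BGLU18 encodes the glucosidase of wound-induced leaf ER bodies, also known to release abscisic acid from its glucose ester. Its levels were 3.04, 3.05, 2.89 and 2.90 in the mutant, against 3.50, 2.40, 1.27 and 2.22 in wild type. The 4 mutant samples were almost equal, spanning 0.16, and lay inside the wild type span of 2.23, which equals a 4.70-fold range of signal. The difference was 0.62 (SE 0.40, 95% interval -0.31 to 1.55, adjusted p = 0.39), and its size turned on wild type replicate 3, without which it was 0.26, and on wild type replicate 1, without which it was 1.01, neither passing. Among all features, 6.05% had a smaller SD in the mutant and 91.3% had a smaller SD in wild type.

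A larger spread in wild type than in the mutant was seen in all 9 members, and in 61.1% of all features. The same held for each of the 13 other ER body and PYK10 complex genes tested, so it does not set the 9 members apart from these. For NAI2 the gap was slight, with a wild type SD of 0.26 beside a mutant SD of 0.24. BGLU21 and BGLU22 moved together from array to array, so they are not separate cases. BGLU21 and BGLU22 had wild type SDs of 1.65 and 1.40, larger than those of 98.7% and 97.5% of all features. In the mutant their SDs were 0.67 and 0.43.

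The lectins differed in sign. PBP1, the lectin that was found by its binding to PYK10 and that helps the complex to polymerise, had levels of 2.70, 2.60, 3.04 and 2.90 in the mutant, against 2.62, 2.49, 1.79 and 1.77 in wild type. In 3 of the 4 mutant samples the level was above every wild type sample, and in replicate 2 it was just below wild type replicate 1. The difference was 0.64 (SE 0.23, 95% interval 0.11 to 1.18, adjusted p = 0.15), and it was 0.66 on slide 1 and 0.62 on slide 2. JAL22, a lectin known to limit the size of the complex, had levels of 0.68, 1.57, 0.61 and 0.69 in the mutant, against 1.74, 2.38, 0.83 and 2.24 in wild type. Of the mutant samples 3 were below every wild type sample, and replicate 2 stood apart from the other mutant samples.

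JAL22 had a difference of -0.91 (SE 0.37, 95% interval -1.77 to -0.060, adjusted p = 0.19). The value was -0.64 on slide 1 and -1.18 on slide 2, and it came nearest to the threshold of all members, without passing, in the fit blocked by replicate number (adjusted p = 0.057). JAL33, a related lectin of the complex, had levels of -0.28, -0.10, 0.11 and 0.32 in the mutant, against 0.54, 0.70, -0.52 and 0.06 in wild type. The mutant samples lay within the wild type range, and the difference was -0.18 (SE 0.28, 95% interval -0.82 to 0.46, adjusted p = 0.74). It was -0.012 without wild type replicate 2 and -0.42 without wild type replicate 3.

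Neither of the ER body formation genes passed. NAI1, the basic helix-loop-helix factor on which PYK10 expression depends, had levels of 0.68, 0.35, 0.82 and 0.27 in the mutant, against 0.66, 0.45, 0.40 and -0.47 in wild type. Apart from the low wild type replicate 4, the 2 genotypes covered nearly the same levels. Its difference of 0.27 (SE 0.26, 95% interval -0.33 to 0.87, adjusted p = 0.58) dropped to 0.027 without wild type replicate 4. NAI2 had levels of 3.46, 3.83, 3.47 and 3.93 in the mutant, against 3.64, 4.25, 3.93 and 3.83 in wild type. Mutant replicates 1 and 3 were below every wild type sample and the other mutant samples were not. This split followed the slides, since replicates 1 and 3 lay on slide 1 and replicates 2 and 4 on slide 2. The difference was -0.24 (SE 0.18, 95% interval -0.66 to 0.19, adjusted p = 0.48), and it was -0.12 without wild type replicate 2.

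**Figure D2:**
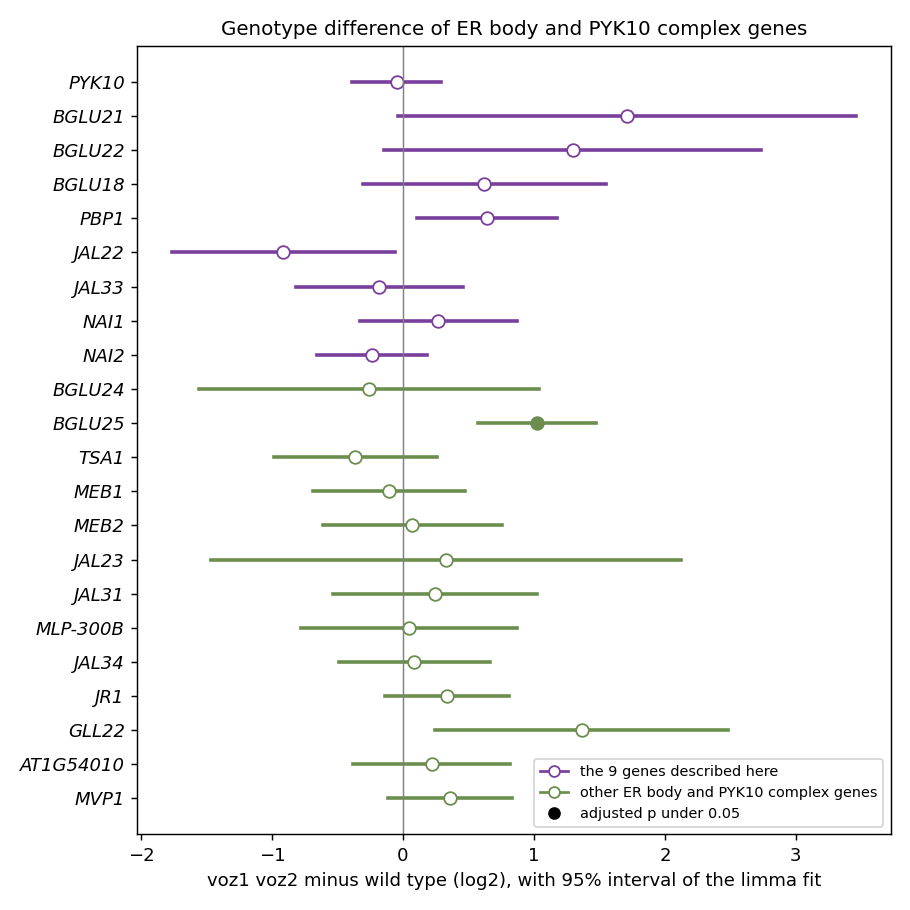
Difference between voz1 voz2 and wild type (x axis, log2, with the 95% interval of the limma fit, 4 arrays per genotype) for the 9 genes and for the 13 other ER body and PYK10 complex genes tested. Filled points passed an adjusted p under 0.05, which BGLU25 alone did among the genes plotted.

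Of 15 other genes of ER bodies or of the PYK10 complex, 13 were tested, with a median difference of 0.22. Of these, 1 rose and none fell, beside 2.72% and 1.72% of all features. In this list BGLU25 (AT3G03640), a glucosidase of the same subfamily as PYK10, rose by 1.02 (SE 0.20, adjusted p = 0.030), or 2.03-fold. Its levels were 0.97, 1.48, 1.31 and 1.35 in the mutant, against 0.43, 0.59, 0.13 and -0.13 in wild type, with no overlap between the genotypes. The call was kept with slide or the replicate number as a block, and when wild type replicate 2 or mutant replicate 1 was left out. Without any 1 of the other 6 arrays the adjusted p was 0.057 to 0.090, and it was 0.066 with no filter, 0.10 with normexp, another background correction, and 0.65 in the deposited table.

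GLL22 (AT1G54000), a lipase-like protein of the PYK10 complex, resembled BGLU21 in its values. It had levels of 2.23, 2.52, 2.56 and 2.76 in the mutant, against 0.80, 2.73, 0.93 and 0.16 in wild type, where replicate 2 again was high and replicate 4 low. The difference of 1.37 (SE 0.49, adjusted p = 0.14) passed only when wild type replicate 2 was left out (1.89, adjusted p = 0.011). Beside it, AT1G54010 and MVP1, both of the same lipase-like family, had differences of 0.22 and 0.36 without passing.

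For the NAI2 homologue TSA1, which lies next to BGLU18, the difference was -0.36 (-0.11 without wild type replicate 1), and for the ER body membrane proteins MEB1 and MEB2 it was -0.11 and 0.071. The lectin genes JAL23, JAL31, MLP-300B, JAL34 and JR1 had differences of 0.33, 0.24, 0.048, 0.087 and 0.34, with adjusted p of 0.36 to 0.95. BGLU24, well above background on 2 mutant and 3 wild type arrays only, had -0.26 (adjusted p = 0.83), and BGLU19 and ATA27 were too dim to be tested.

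The members are best known from roots, so root and shoot markers were read on the same arrays. Of 17 root markers, all tested and 16 well above background on all arrays, 1 rose and 15 had differences above 0, with a median of 1.01. WOX5, a quiescent centre gene, rose by 0.69 (SE 0.15, adjusted p = 0.045). That call was lost whichever array was left out (adjusted p 0.066 to 0.13). It was also lost with median scaling (0.16), with no filter (0.10) and in the deposited table (0.76). With normexp the WOX5 difference was 0.15. Its probe was dim, with mean levels of -5.15 in the mutant and -5.83 in wild type. SKOR, a potassium channel gene of the stele, had 1.19 (adjusted p = 0.090), passing with slide (0.036) or replicate number (0.037) as a block. RSL4 of root hairs had 1.93 without passing, with 1.17 without wild type replicate 4 and 0.98 with normexp.

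Averaged per array, the root markers stood at -1.5, -1.51, -0.85 and -1.72 in voz1 voz2 replicates 1 to 4, against -2.28, -1.41, -1.88 and -3.43 in wild type replicates 1 to 4. The difference of the means was 0.85, which an exact two-sided permutation test over arrays did not separate (p = 0.114, the smallest possible being 0.0286, n = 4 each). Without wild type replicate 4 the difference was 0.46. Wild type replicate 4 was the lowest of the 8 arrays in 12 of the 17 root markers and in 5 of the 9 members. These 5 include BGLU21 and BGLU22, which moved together, and the share over all features was not computed. Among wild type samples, replicate 2 was highest and replicate 4 lowest for the root markers, for BGLU21 and BGLU22, for GLL22 and for PYK10. Among mutant samples, replicate 3 was highest for the root markers, BGLU21 and BGLU22, but lowest for PYK10, and GLL22 was highest in replicate 4. The part of root content in these differences was not tested.

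**Figure D3:**
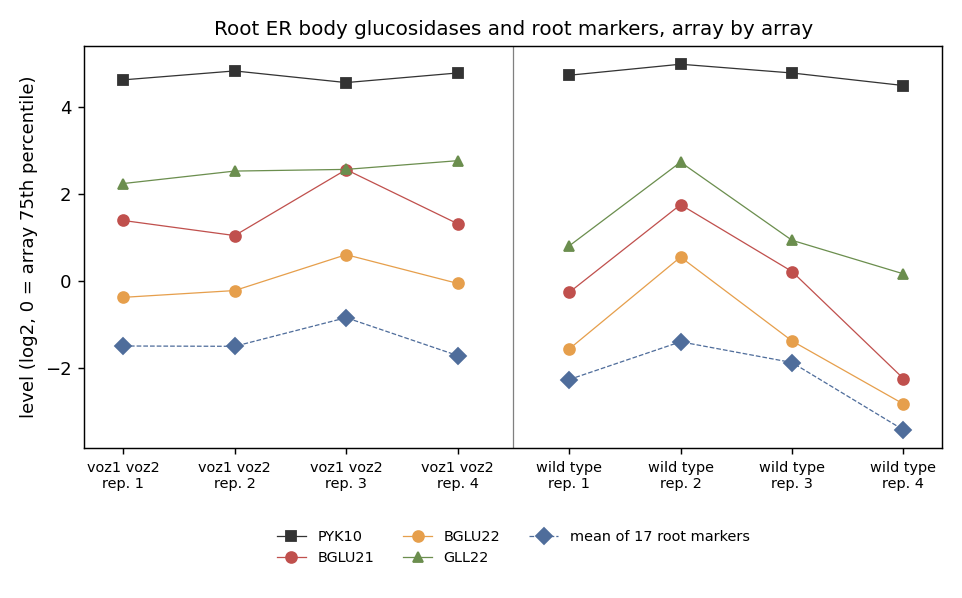
Levels of PYK10, BGLU21, BGLU22 and GLL22 and the mean of 17 root markers (y axis, log2 relative to the array's 75th percentile) in each voz1 voz2 array and each wild type array; thin lines only guide the eye. In wild type, replicate 4 is lowest in all 5 traces, with BGLU21 at -2.25 and the root marker mean at -3.43.

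Shoot markers, 10 photosynthesis genes, held no gene past the threshold and had a median difference of -0.30. PSBO2 and RBCS1A had outlier flags on 4 of the 8 arrays, which left 3 mutant arrays against 1 wild type array, so their -0.73 and -0.62 are given with no test. The single wild type array was replicate 4 for PSBO2 and replicate 3 for RBCS1A. LHCB2.1 and LHCB3, measured on every array, had 0.30 and -0.33. The mean of the 6 shoot markers with a value on every array ranged from 4.48 to 4.95 in the mutant and from 4.67 to 5.23 in wild type (difference -0.12, exact two-sided permutation p = 0.543, n = 4 each). The highest value, 5.23, was that of wild type replicate 4, the other wild type arrays being at 4.67 to 4.75, and without that array the difference was 0.012.

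Of 33 further beta-glucosidase genes of the same enzyme family, 23 were tested, with a median difference of -0.23. Of these, 3 rose and 1 fell, beside 2.72% and 1.72% of all features. BGLU28, known from sulfur starvation, had the smallest p of this list. Its levels were -0.72, -2.46, -0.91 and -0.28 in the mutant, against -3.23, -3.89, -3.65 and -3.93 in wild type, with every mutant sample above every wild type sample. It rose by 2.58 (SE 0.44, adjusted p = 0.019), or 6.0-fold, and missed the threshold without wild type replicate 4, mutant replicate 1 or mutant replicate 3 (adjusted p 0.058 to 0.061).

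BGLU47 and BGLU1 rose by 1.16 and 1.06 (adjusted p = 0.031 and 0.039) and BGLU7 fell by 1.17 (adjusted p = 0.048). Each of these 3 calls was kept without 1 array only, which was wild type replicate 2 for BGLU47, wild type replicate 1 for BGLU1 and mutant replicate 1 for BGLU7. Without each of the other arrays the adjusted p lay between 0.053 and 0.13. With normexp these calls and that of BGLU28 were lost (adjusted p 0.11 to 0.20), as they were in the deposited table (0.12 to 0.55). The calls of BGLU47, BGLU1 and BGLU7 were also lost with median scaling (0.062 to 0.095) and with no filter (0.066 to 0.093).

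Among 10 genes of the classical glucosinolate hydrolysis system, 2 rose and none fell, beside 2.72% and 1.72% of all features. Their median difference was 0.057. ESP (AT1G54040), the epithiospecifier protein that steers glucosinolate breakdown to nitriles and epithionitriles, had levels of 3.58, 2.83, 3.39 and 2.79 in the mutant, against 1.87, 1.40, 1.91 and 0.64 in wild type. It rose by 1.69 (SE 0.32, adjusted p = 0.028), or 3.23-fold, with no overlap between the genotypes. The call was lost without mutant replicates 1, 2 or 3 (adjusted p 0.061 to 0.081). The shoot myrosinase TGG2 had levels of 5.06, 4.51, 5.0 and 4.52 in the mutant, against 4.18, 3.35, 3.62 and 3.60 in wild type, and rose by 1.08 (SE 0.22, adjusted p = 0.036), a call kept only without wild type replicate 1 when single arrays were left out (otherwise adjusted p 0.054 to 0.098). Its partner TGG1 had 0.43 (adjusted p = 0.12). NSP4, a nitrile specifier gene next to PBP1, had -0.18 (adjusted p = 0.43), but the mean of its 3 probes gave 0.55, so its probes disagreed. With normexp the calls of ESP and TGG2 were lost (adjusted p = 0.064 and 0.081). Both were also lost with no filter (0.056 and 0.076) and in the deposited table (0.22 and 0.53), and that of TGG2 with median scaling (0.096).

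**Figure D4:**
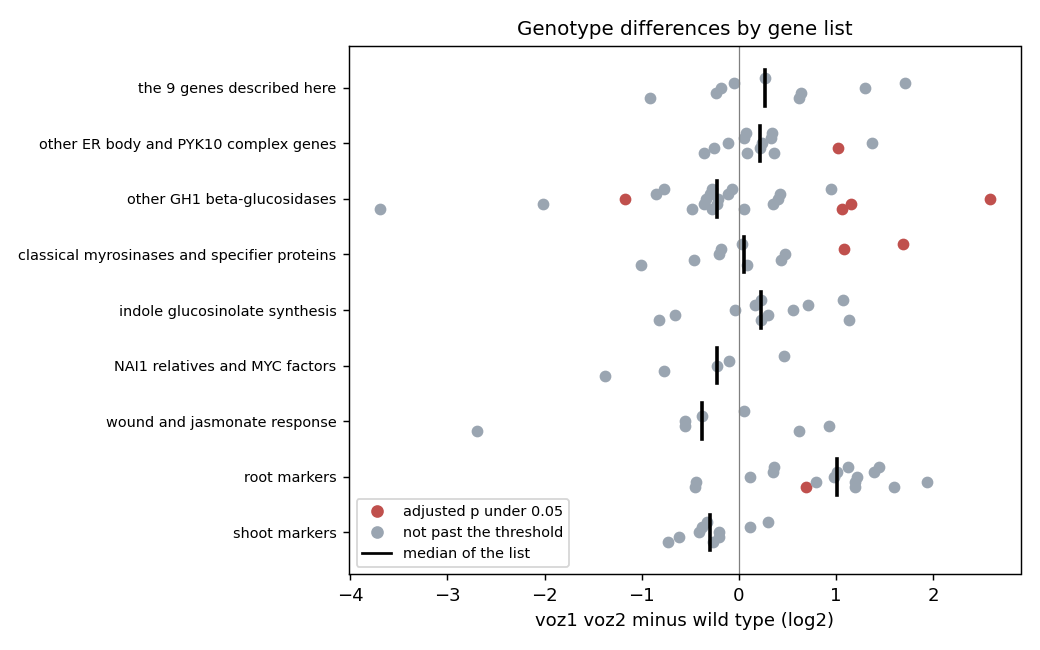
Difference between voz1 voz2 and wild type (x axis, log2) for every tested gene of 9 lists, with the list median as a black bar and genes past an adjusted p of 0.05 in red. None of the 9 genes described here is past the threshold, and 8 genes of the other lists are.

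Of 5 tested relatives of NAI1 and MYC factors, none passed limma's threshold and 2 had an unadjusted p under 0.05, beside 23.6% of all features. AT2G22760, the neighbour of NAI1 that encodes a related basic helix-loop-helix protein, had levels of -6.33, -6.58, -5.65 and -5.58 in the mutant, against -4.07, -5.44, -4.63 and -4.50 in wild type. The mutant samples were all lower, with a difference of -1.37 (SE 0.34, adjusted p = 0.059). That difference passed with slide (0.037) or the replicate number (0.033) as a block and without wild type replicate 2 (0.029), and in no other alternative. Over the alternatives it ran from -1.71 to -0.37. The probe was dim, with processed signals of 14.0 to 75.2. AT2G22750, the next gene along, had -0.77 (adjusted p = 0.39) and was well above background on 2 mutant and 4 wild type arrays. MYC3 and MYC4, jasmonate-pathway factors, had -0.22 and 0.46 (adjusted p = 0.49 and 0.17).

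None of 7 tested wound and jasmonate response genes passed limma's threshold, and 0 had an unadjusted p under 0.05. AOS and LOX2, enzymes of jasmonate synthesis, had 0.62 and 0.93, while TAT3 and VSP1, responsive to wounding, had -2.70 and -0.55. TAT3 ranged from -4.78 to -1.6 over the mutant samples, and from -3.41 in replicate 3 to 2.74 in replicate 1 over the wild type samples. On those 2 wild type arrays BGLU18 and VSP1 also were lowest and highest. Among wild type arrays AOS and LOX2 were highest in replicate 1 too, but lowest in replicate 4. JAL22 and JAL33 were lowest in replicate 3 too, but highest in replicate 2. Wild type replicate 3 had the lowest share of probes well above background of all arrays, 60.4%. A link between TAT3 and BGLU18 was not tested. Without wild type replicate 1 the TAT3 difference was -1.54. Of 11 indole glucosinolate synthesis genes none passed in limma and 2 had an unadjusted p under 0.05, beside 23.6% of all features. The sulfotransferase gene SOT16 had 0.55 (adjusted p = 0.13), and passed with the replicate number as a block (0.048). The regulators MYB51 and MYB122 had 1.07 and 1.13 (adjusted p = 0.21 and 0.20), MYB51 passing with the replicate number as a block (0.0498). Over the alternatives the MYB51 difference ran from 0.60 to 1.33 and that of MYB122 from 0.23 to 1.47. CYP81F2, which modifies indole glucosinolates, had -0.66.

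Over the 8 arrays, the genes outside the 9 whose levels were most like those of PYK10 were AT5G44230, AT3G59850, AT3G20370, AT5G43120 and PDLP4, with Pearson correlations of 0.90 to 0.96. These arrays share their scaling, and correlations above 0.9 with PYK10 were found for 0.0246% of all features. That share is made up of PYK10 itself and these 5 genes, so it gives no background for them. None of the 5 passed between genotypes (adjusted p 0.56 to 0.94), and AT3G59850 and AT5G43120 were not well above background on every array. Among the 9 themselves, PYK10 was most like NAI2, at 0.74. Between JAL22 and NAI1 the correlation was -0.51, the lowest of the 36 pairs.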

How the data were processed

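The 8 arrays were read with version 9.1.3.1 of Agilent Feature Extraction, as the headers and the submitters' processing notes state. Tests started from the deposited intensity called processed signal, background-subtracted per spot, with flags for outliers, saturation (0 spots) and being well above background. The deposited series table is on a natural log scale, and its values equal the log of that signal minus 6.91 on mutant and 6.42 on wild type arrays, which sets the genotypes 0.706 apart on the log2 scale. Medians per array were -2.67 to -1.28. It served as an alternative only, and no source used here explains the constants.

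Log2 signals were averaged over the spots of a probe, without outlier spots (9 to 111 per array), and each array's 75th percentile was subtracted. Testing needed a probe to be well above background on 4 or more arrays, and the probe with the highest mean stood for a locus. The fit was made with limma 3.58.1 in R 4.3.3 (lmFit, eBayes, Benjamini-Hochberg over all features). It was checked on simulated data. Symbols came from a RefSeq table (TAIR10.1), which held all 121 loci of the lists, and neighbours are its order of protein-coding genes. No coordinates are printed, since the genome build behind the array is not stated.

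The titles of the samples gave groups and replicate numbers. Arrays with the same number deviated from their genotype means together (r = 0.318, 0.515, 0.465 and 0.614 for replicates 1 to 4, across features). Arrays with other numbers on the same slide did so too, at 0.265 to 0.538. Only the value of replicate 4 lay above that range, so equal numbers were not shown to be pairs. The main fit used no pairing, and the replicate block served as an alternative only. No array duplicated another of its genotype (correlations 0.962 to 0.991). The number of arrays limits the precision.

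The named genes are the 9 members, VOZ1 and VOZ2, the tested genes of the ER body list, up to 4 genes with the smallest p of each other list, and the 5 genes most like PYK10. The value of 1 gene under this rule is not reported here. The members and lists were chosen with earlier results of these data known. The normexp alternative used median spot signals, the mean signals it was planned on not being among the columns.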

Additional observations from a re-analysis of the deposited data

Results flagged for a closer look

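In 3 of 110 groups of 4 arrays tested over the named genes, 1 sample lay far from the other 3 relative to the range, where chance flags about 1 in 20 groups. For JAL22 this was voz1 voz2 replicate 2, at 1.57 against 0.61 to 0.69 in the other mutant samples. Without that array the JAL22 difference was -1.14 (adjusted p = 0.17). For MEB2 it was wild type replicate 4, at -1.83 against -0.88 to -0.69. For JR1 it was wild type replicate 1, at 3.48 against 2.75 to 2.77.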

How the results depend on the processing

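Of the 171 combinations of a member with an alternative, 166 kept the direction and the side of the threshold, 4 changed sign and 1 passed (BGLU22 without wild type replicate 2). The count of members past the threshold was 0 to 1 with single arrays left out and 0 under every other alternative run. The count over all features was 1091, and 3314 with the replicate block, 3955 with slide as a block, 715 with median scaling, 94 with normexp, 70 in the deposited table, 514 with no filter, 0 on either slide alone (limma with 2 arrays per genotype) and 387 to 1506 with single arrays left out. The 8 calls in the other lists became 3 with median scaling, 0 with normexp, in the deposited table or on either slide alone, 1 with no filter and 0 to 6 with single arrays left out. The replicate block ended no call among the named genes and added those given for AT2G22760, SKOR, SOT16 and MYB51. The root marker difference was 0.46 (exact permutation p = 0.229) without wild type replicate 4 and 1.13 (p = 0.0286) without wild type replicate 2, the lowest and highest with single arrays left out, and the exact permutation p was at most 0.286.

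Sign changes concerned values with no call. With quantile scaling they were PYK10 (0.056), BGLU24 (0.17), MLP-300B (-0.043) and the shoot marker mean (0.057). Median scaling turned MEB2 (-0.045), MLP-300B (-0.068), JAL34 (-0.028), AT3G20370 (-0.083) and AT5G43120 (-0.0048). Normexp turned MLP-300B (-0.053), AT5G43120 (-0.090) and PDLP4 (-0.049), and the mean of probes NSP4 (0.55). The deposited table, which has its constants in place of the 75th percentile scaling and a median over all features of -0.37, turned NAI1 (-0.068), MEB2 (-0.27), JAL23 (-0.0089), JAL31 (-0.097), MLP-300B (-0.29), JAL34 (-0.25), JR1 (-0.0013), AT1G54010 (-0.12), LHCB2.1 (-0.040), AT3G20370 (-0.31), AT5G43120 (-0.23) and PDLP4 (-0.14). Slide 1 alone turned AT3G20370 (-0.10), AT5G43120 (-0.28) and PDLP4 (-0.022). Slide 2 alone turned PYK10 (0.067), MEB1 (0.028), JAL31 (-0.057), MLP-300B (-0.33) and AT5G44230 (0.044). With single arrays left out the ranges crossed 0 for PYK10 (-0.13 to 0.031), BGLU24 (-0.76 to 0.20), MEB1 (-0.33 to 0.032), MEB2 (-0.19 to 0.19), JAL23 (-0.34 to 0.74) and MLP-300B (-0.17 to 0.29). The same held for JAL34 (-0.13 to 0.20), AT5G44230 (-0.075 to 0.030), AT3G20370 (-0.12 to 0.16), AT5G43120 (-0.27 to 0.44), PDLP4 (-0.078 to 0.47) and the shoot marker mean (-0.19 to 0.012). The cause was not tested. The number of arrays limits how small a difference could pass.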
